A study of Mus musculus with 33 samples.

Results

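The canonical histone genes of the mouse genome were followed across 4 tissues, 2 sorts and the cell classes of a niche labelling study. A member was any gene whose symbol in the deposited feature lists began with Hist1h, Hist2h, Hist3h or Hist4. This gave 67 of 32285 genes, of which 6 coded for linker histone H1, 18 for H2A, 18 for H2B, 12 for H3 and 13 for H4. The choice used names only and no measured value.

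The histone octamer wraps DNA into nucleosomes, and H1 binds the linker DNA between them. Most canonical histone genes sit in clusters, are transcribed when DNA is replicated, and yield messages that end in a conserved stem-loop and not in a poly(A) tail. The stem-loop is bound by SLBP and trimmed by a dedicated processing machinery. Some histone genes also make polyadenylated messages in cells that have left the cell cycle. Libraries primed on poly(A), as here, take up tailed messages and only part of the tail-less ones, so the levels given below are of captured molecules.

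The study used SAMENT, in which an enzyme on tumour cells attaches biotin to cells near them. Mouse lungs, livers, brains and hind limb bones were collected after about 10 hr of substrate labelling, dissociated with collagenase A, and sorted into biotin positive (tagged) and biotin negative (untagged) cells. After an intracardiac injection there were 4 samples of each sort from bone, brain, liver and lung (32 samples in 8 groups), and a further pooled bone library from an injection called IIA in the labels held 6 tagged and 6 untagged samples told apart by hashtag antibodies. All groups thus came from injected and substrate-labelled mice, and untreated mice were not analysed here. The labels used here give no strain, age, sex, tumour line or promoter for the enzyme, and do not say whether a sample was 1 animal or a pool. The p-values below therefore measure the spread between samples.

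Kept cells numbered 55366 in the intracardiac experiment (94 to 3505 per sample) and 22362 in the IIA experiment (249 to 3480 per sample), with sample medians of 2532 to 11313.5 UMIs per cell. Sums of UMIs in kept cells ran from 482617 to 44834665 per sample, and levels are given as CPM, the UMIs of a gene scaled to a fixed total per sample. Low levels in the smallest samples thus rest on very few molecules. Of the intracardiac cells, 650 carried a barcode also found in another sample, and 0 of these pairs lay within 1 replicate number. The 12 markers of granulocyte precursors summed to 6286 to 10523 CPM in untagged bone, and no marker of that list was at 0 in any group. That sum is not particular to bone, since tagged lung had 5039 to 21161 CPM with at most 0.575% of its cells in precursor classes. Precursor classes were the granulocyte precursor-like and stem or progenitor-like classes with clusters 9 and 11, which no marker list named. In the IIA samples B cell precursor-like cells and unnamed cluster 1 took the place of clusters 9 and 11. Replicate 1 of brain stood apart from the other brain samples in both sorts, with 23.9% (untagged) and 13.4% (tagged) of its cells in precursor classes against 0.444% to 11.5% in the rest. The calls of the main tests and of the blocked brain tests below that use brain replicate 1 were refitted without it. Calls inside single clusters and under other settings were not.

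Of the 67 members, 54 lie on chromosome 13 between positions 21715763 and 23934851, 10 on chromosome 3 between 96219865 and 96270132, 2 on chromosome 11 and 1 on chromosome 6 (GRCm38, the assembly behind mm10). By annotation 62 have a single exon and 5 have 2 or 3. The promoters of 62 members were found in the RefSeq promoter table, 250 bases before to 50 after each start. CCAAT on either strand was present in 100% of the promoters of H1, H2A, H2B and H3 and in 25% of those of H4, against 37.4% of 32851 promoters of all genes. The octamer ATTTGCAT occurred in 38.9% of H2A and 37.5% of H2B promoters, in 0 of the H1, H3 and H4 promoters and in 1.74% of all promoters. Some H2A and H2B genes start close together on opposite strands, so that 1 site of a motif can be counted for both families. TATAAA occurred in 56.5% of members against 13.6% of all promoters, and AAACACA, the H1 box, in 83.3% of H1 promoters against 7.18% of all promoters. Of each family, the promoter of the most abundant intracardiac member with a unique 3′ end and a promoter in the table is printed to show these letters in place, because these 5 members recur in the comparisons. Capitals mark these 4 motifs or their reverse complements, with 0 overlaps among them. The Hist1h2ae window runs past the start of Hist1h2bg (H2B) at 23571396 on the other strand. Its TATAAA match, printed as TTTATA, lies nearer to that start than to the start of Hist1h2ae. The windows are chr13:21780576-21780875 (minus strand) for Hist1h1b, chr13:23571171-23571470 (minus) for Hist1h2ae, chr13:23621045-23621344 (minus) for Hist1h2be, chr13:23745472-23745771 (minus) for Hist1h3c and chr13:23581318-23581617 (plus) for Hist1h4d, from RefSeq on GRCm38.p6. The Hist1h2be window lies wholly inside the annotated Hist1h1e gene (23620629 to 23622558, same strand). It is at the upstream end of a Hist1h2be locus annotated from 23583670 to 23621124. It holds neither the octamer nor TATAAA and need not stand for H2B promoters in general.
Hist1h1b: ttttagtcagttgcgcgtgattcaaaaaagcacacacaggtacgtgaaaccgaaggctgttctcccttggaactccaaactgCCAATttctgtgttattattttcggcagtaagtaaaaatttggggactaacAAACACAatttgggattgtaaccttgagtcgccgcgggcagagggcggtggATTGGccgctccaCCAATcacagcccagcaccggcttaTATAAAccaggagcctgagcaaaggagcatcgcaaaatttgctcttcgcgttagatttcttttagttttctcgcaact
Hist1h2ae: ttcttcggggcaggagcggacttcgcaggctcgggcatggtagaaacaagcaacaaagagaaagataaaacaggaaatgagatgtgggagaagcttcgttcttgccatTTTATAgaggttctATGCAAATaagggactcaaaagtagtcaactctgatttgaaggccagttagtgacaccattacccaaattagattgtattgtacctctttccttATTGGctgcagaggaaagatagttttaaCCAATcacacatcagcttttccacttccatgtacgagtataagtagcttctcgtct
Hist1h2be: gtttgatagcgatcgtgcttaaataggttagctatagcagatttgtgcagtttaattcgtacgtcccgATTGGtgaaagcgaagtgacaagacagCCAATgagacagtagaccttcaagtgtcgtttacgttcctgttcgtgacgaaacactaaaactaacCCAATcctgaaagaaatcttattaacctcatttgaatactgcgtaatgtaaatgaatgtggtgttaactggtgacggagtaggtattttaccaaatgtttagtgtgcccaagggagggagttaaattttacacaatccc
Hist1h3c: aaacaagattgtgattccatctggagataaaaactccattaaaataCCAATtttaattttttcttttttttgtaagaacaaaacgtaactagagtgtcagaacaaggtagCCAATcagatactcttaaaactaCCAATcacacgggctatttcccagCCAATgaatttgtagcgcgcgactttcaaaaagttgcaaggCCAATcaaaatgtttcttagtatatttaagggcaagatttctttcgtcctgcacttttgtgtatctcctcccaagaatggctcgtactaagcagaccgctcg
Hist1h4d: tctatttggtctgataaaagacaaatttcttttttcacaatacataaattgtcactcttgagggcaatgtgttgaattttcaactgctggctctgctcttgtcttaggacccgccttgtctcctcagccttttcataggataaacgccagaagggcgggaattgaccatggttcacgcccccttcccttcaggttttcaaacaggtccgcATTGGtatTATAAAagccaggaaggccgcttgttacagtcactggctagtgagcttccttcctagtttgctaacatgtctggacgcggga

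A match of letters is a description of these windows and was not tied to a measured factor. The other shared element is the stem-loop near the end of the message. It was searched as 2 arms of 6 bases that pair, the first starting with GG and ending with CT, around a loop of 4 bases with at least 3 T, and was found in the annotated transcripts of 45 members. The forms held by at least 2 members are printed because they follow the families, with 3 of the 5 found in H4 genes alone. Capitals mark the whole stem-loop.
H1, H2A, H2B and H3 (26 members): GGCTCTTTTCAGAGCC
H4 (7 members): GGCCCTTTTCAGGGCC
H1, H2B and H3 (6 members): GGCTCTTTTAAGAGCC
H4 (Hist2h4 and Hist1h4i): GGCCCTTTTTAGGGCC
H4 (Hist1h4j and Hist1h4b): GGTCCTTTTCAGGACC

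The members share long stretches of sequence, which limits how a read can be assigned to 1 of them. Among the windows of 60 bases, only 5 members were unique in all and 2 in none. The last 100 bases, where 3′ libraries place their reads, were unique in 45 members and had no unique window in 11. The first 100 bases, where 5′ libraries place them, had no unique window in 12. Levels of single members with shared ends are uncertain for this reason, and the family sums are less exposed to it.

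Histone messages were a small set dominated by few genes. The members took 884098 UMIs in the intracardiac experiment and 202812 in the IIA experiment, and 65 of 67 were detected in each (Hist1h2aa and Hist1h2ba had 0 UMIs in both). In the intracardiac samples 23 members averaged at least 10 CPM and 16 less than 1 CPM, and the 12 most abundant held 82.2% of all member UMIs. Each UMI counts 1 captured molecule, so that these levels are not divided by gene length. H2A genes supplied 40.4% of the member UMIs, H1 genes 32.7%, H2B 10.9%, H4 9.5% and H3 6.53%.

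The most abundant member was Hist1h2ap, an H2A gene, with a mean of 315 CPM over the 32 intracardiac samples. It was followed by the linker histone gene Hist1h1b at 204 CPM, Hist1h2ae (H2A) at 171, Hist1h1e (H1) at 166, Hist1h1c (H1) at 133 and Hist1h2bc (H2B) at 115 CPM. Hist1h4d (H4) had 77.8 CPM, Hist1h2ab (H2A) 36.0, Hist1h3c (H3) 35.2, Hist1h4i (H4) 34.2, Hist1h1d (H1) 32.2 and Hist2h2ac (H2A) 31.6 CPM. This order holds for means over tissues and sorts that differ many-fold, so neighbours in it were not tested against each other.

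**Figure D1:**
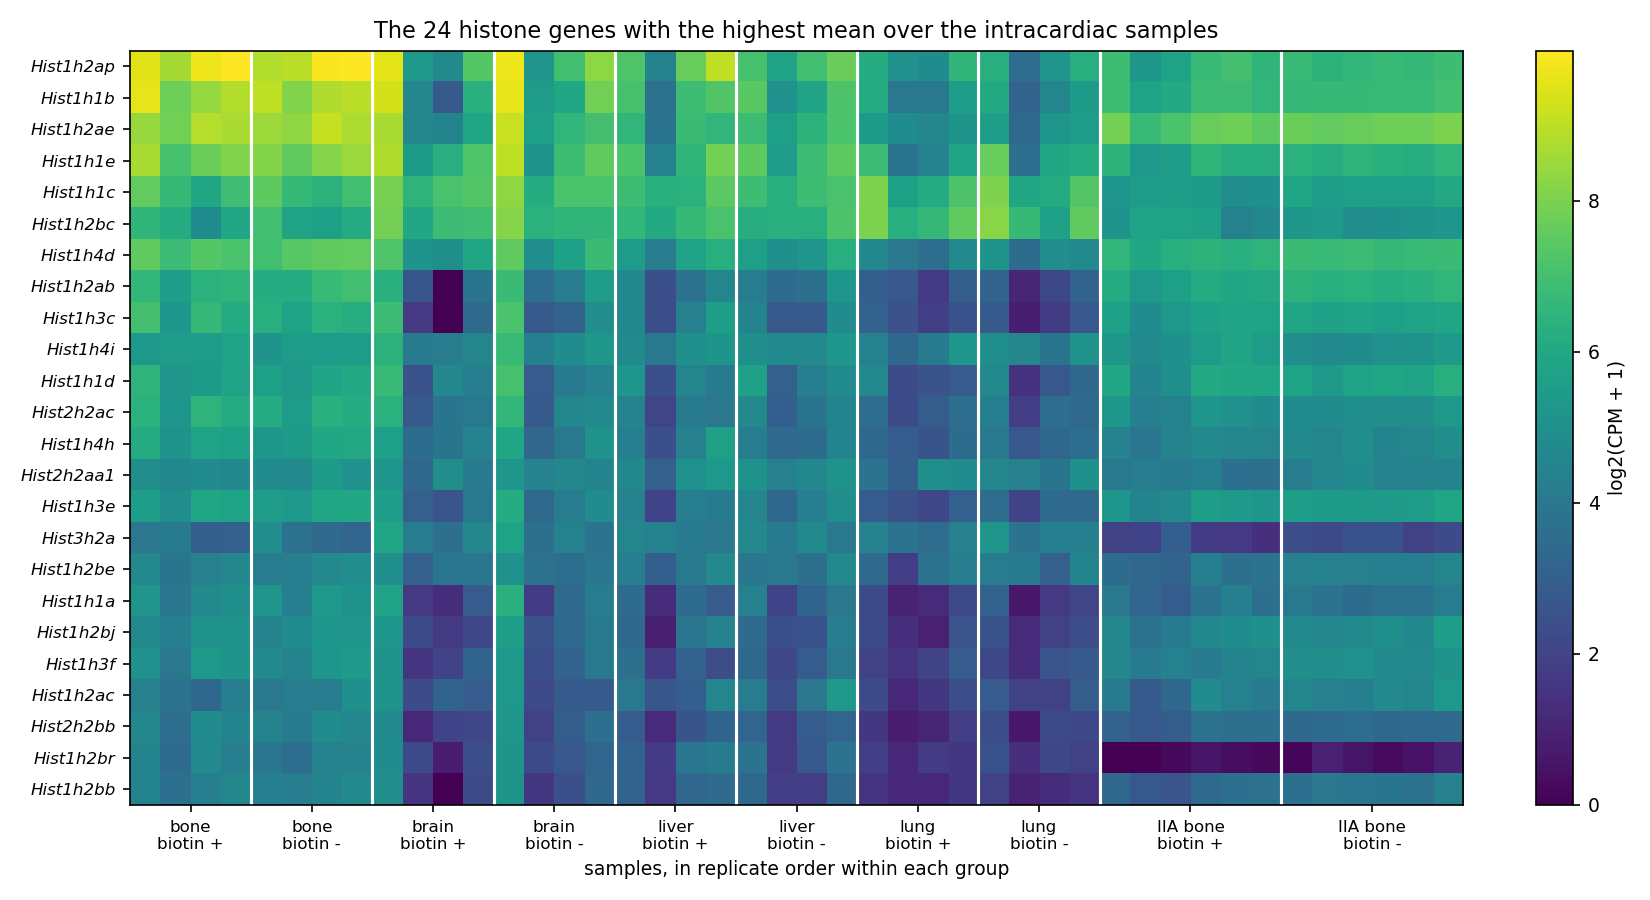
Levels of the 24 histone genes with the highest intracardiac mean (vertical axis, highest at the top) in each of the 44 samples (horizontal axis, in replicate order within each tissue and sort), as colour on a scale of log2(CPM + 1). Bone samples and replicate 1 of brain are bright for Hist1h2ap, Hist1h1b and Hist1h2ae, whereas Hist1h1c and Hist1h2bc vary less between tissues, and Hist1h2br is near 0 in the IIA samples.

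The level summed over the 67 members was highest in bone. In untagged bone it was 2839, 2315, 3544 and 3698 CPM in replicates 1 to 4, and in tagged bone 3799, 1825, 3055 and 3357 CPM. Untagged brain had 4980, 512, 984 and 1636 CPM and tagged brain 4107, 474, 599 and 1048 CPM. Brain replicate 1 lay above every bone sample in both sorts, and the other 6 brain samples lay below all of them.

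In untagged liver the sum was 1302, 559, 898 and 1548 CPM, and in tagged liver 1169, 358, 1115 and 1900 CPM. Untagged lung had 1278, 327, 462 and 830 CPM and tagged lung 1042, 322, 399 and 796 CPM. Replicate 2 was the lowest of its group in all 8 intracardiac groups. In brain and in lung the order from high to low was 1, 4, 3, 2 in both sorts, and in liver 4, 1, 3, 2 in both. In bone the order of the other 3 samples differed between the sorts. Whether the numbers mark mice, days or libraries is not given in the labels.

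In the IIA experiment the sums were 1632, 913, 1110, 1641, 1701 and 1514 CPM in the tagged samples and 1698, 1548, 1678, 1706, 1660 and 2153 CPM in the untagged ones. The groups overlapped, with tagged replicates 2 and 3 below and untagged replicate 6 above all others.

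**Figure D2:**
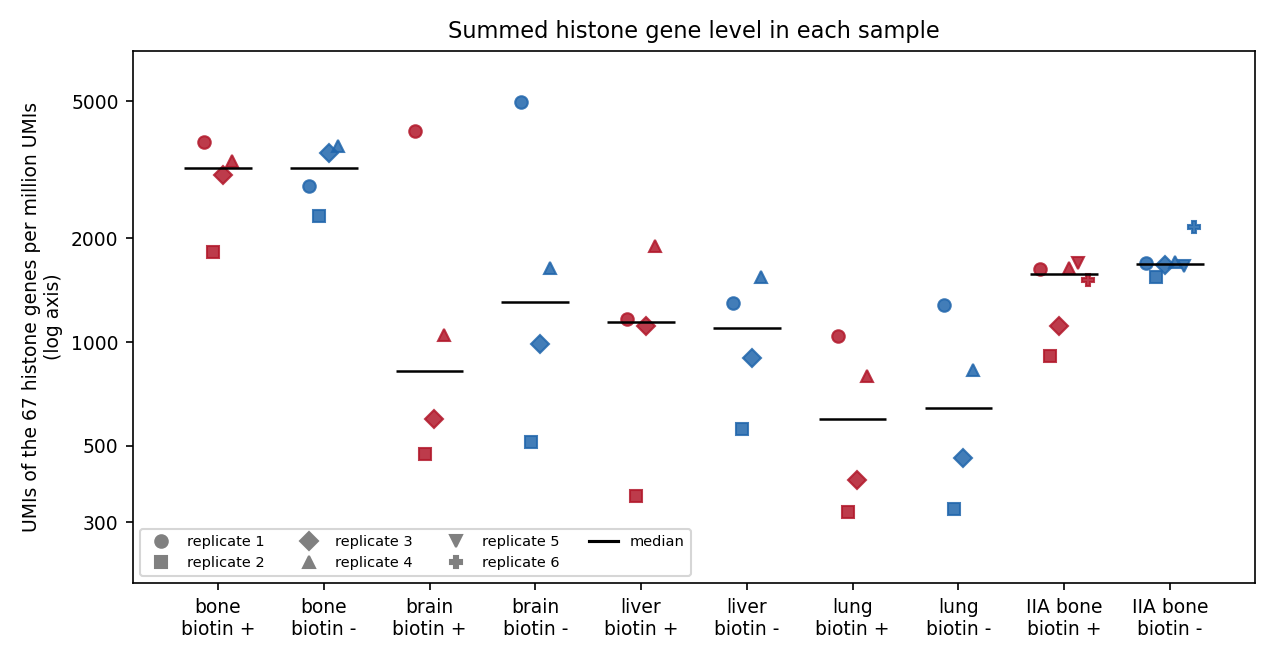
Summed level of the 67 histone genes in CPM (vertical log axis) by tissue, injection and sort (horizontal axis), with 1 point per sample, its shape giving the replicate number, and a bar at the median of each group. Bone samples lie between 1825 and 3799 CPM, and brain replicate 1 stands at 4980 and 4107 CPM.

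Histone messages were also summed by cell class. Classes were named from marker genes and stand for resemblance. The granulocyte precursor-like and the stem or progenitor-like class of the intracardiac samples were 1 cluster each, whereas the neutrophil-like class pooled 5 clusters, the monocyte-like class 4 and the B cell-like class 3. Samples with at least 20 cells of a class gave the values. By median the highest intracardiac sums were in cluster 11 (led by Pclaf, Stmn1 and Birc5), with 4556 to 8886 CPM and a median of 6414 over 11 samples. Cluster 9 (Camp, Fcnb and Orm1) had a median of 6026 CPM (2885 to 7484, n = 12). The granulocyte precursor-like class stood at 4709 CPM (2945 to 8272, n = 10) and the stem or progenitor-like class at 4290 CPM (1395 to 11624, n = 11). These 4 classes were the ones with the most cells in cycle by the S phase and G2/M gene lists, which hold no member. Of granulocyte precursor-like cells 35.6% fell in the S bin and 58.3% in the G2/M bin, against 0.557% and 2.39% of neutrophil-like cells.

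Outside these classes the medians were 901 CPM in B cell-like, 661 in monocyte-like and 474 CPM in neutrophil-like cells, the last with a range of 249 to 943 over all 32 samples. The range of neutrophil-like cells did not overlap that of the granulocyte precursor-like class. Untagged brain replicate 1 was high in pooled classes as well, with 4252 CPM in B cell-like cells against 593 to 1024 in the other untagged brain samples, and 2159 in monocyte-like cells against 301 to 879. The clusters behind these sums were not the same. Of its B cell-like cells 36.7% were in cluster 25 (led by Vpreb3, Iglc1 and Fam129c), with 8162 CPM, against at most 6.70% in the other untagged brain samples. Within cluster 1, which held most B cell-like cells, it had 1436 CPM against 629 to 1017 CPM. Of its monocyte-like cells 81.6% were in cluster 7, which held at most 2.63% in the others.

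The genes that made up the sum changed with the class. In the granulocyte precursor-like class Hist1h2ap supplied 27.1% of the member UMIs, Hist1h1b 16.3% and Hist1h2ae 13%. In neutrophil-like cells Hist1h2bc supplied 26.4%, Hist1h1c 26.1% and Hist1h1e 13.3%. Hist1h2ap had a median of 1342 CPM in granulocyte precursor-like and 12.9 CPM in neutrophil-like samples. Hist1h1b had medians of 693 and 2.86 CPM and Hist1h2ae of 596 and 4.21 CPM.

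Hist1h1c, an H1 gene, and Hist1h2bc, an H2B gene, were not lower in neutrophil-like cells. Hist1h1c stood at a median of 104 CPM (48.6 to 276) in granulocyte precursor-like and 136 CPM (46.1 to 252) in neutrophil-like samples. For Hist1h2bc the medians were 47.0 and 141 CPM. The ranges of both genes overlapped between the classes, and no test was made. Alveolar macrophage-like cells had 27.4% of member UMIs from Hist1h2bc and 23.7% from Hist1h1c. Plasmacytoid dendritic cell-like cells were led by Hist3h2a, an H2A gene of the small cluster on chromosome 11, which supplied 16.2% at a median of 99.1 CPM (56.8 to 135, n = 8), against 9.24 to 62.3 CPM in monocyte-like samples, so that the ranges overlapped at 1 end only. These levels describe classes found by clustering without the members, and no test was made between classes.

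The 2 experiments read opposite ends of the message, and members with shared sequence changed places between them. Hist1h2ao (H2A) had a mean of 0.282 CPM in the intracardiac samples and 143 CPM in the IIA samples, where it ranged from 57.8 to 203. Its neighbour Hist1h2ap had 315 and 95.6 CPM. The last 100 bases of Hist1h2ap held 0% unique windows and its first 100 bases 73.2%, whereas Hist1h2ao had 68.3% at its end and 0% at its start. Hist1h2an (H2A) had 1.89 CPM in the intracardiac and 31.5 in the IIA samples, and Hist1h2br (H2B) 10.2 and 0.351 CPM. Hist1h2ae and Hist1h4d, whose first and last 100 bases are unique, had 171 and 198 CPM and 77.8 and 94.8 CPM. The injection, the library chemistry and the Cell Ranger version changed together between the experiments, and their parts cannot be told apart.

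Members also differ in how far the annotated transcript runs past the stem-loop. The 22 members with over 100 bases after it had a median of 9.65 CPM in the intracardiac samples and supplied 43.1% of the member UMIs, with 6 of the 12 most abundant members among them. The 23 with at most 100 bases had a median of 2.03 CPM and 33.6% of the UMIs. The 22 with no stem-loop in the annotated transcript had a median of 2.41 CPM and 23.3% of the UMIs. In the IIA samples these shares were 42.4%, 37.2% and 20.3%. Hist1h1c and Hist1h4d are of the first kind, with 840 and 770 bases after the stem-loop, and Hist1h2ap is of the second, with 3.

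**Figure D3:**
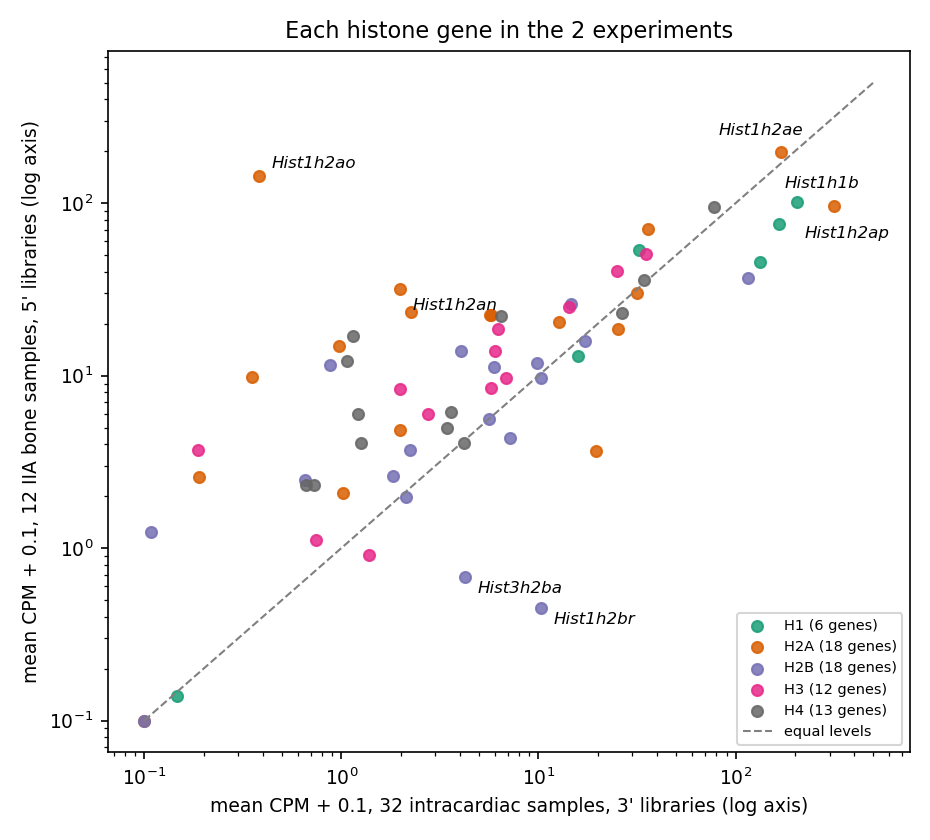
Mean level of each histone gene in the 32 intracardiac samples (horizontal axis) and the 12 IIA samples (vertical axis), as CPM + 0.1 on log axes, with 1 point per gene coloured by family and a dashed line at equal levels. Many genes of low intracardiac level lie above the line, Hist1h2ao farthest, and Hist1h2br and Hist3h2ba lie below it.

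The first comparison asked how untagged bone differed from untagged brain, liver and lung over all cells. Histone genes were higher in bone: of the 58 members that passed the filter on low counts, 38 rose and 0 fell (edgeR quasi-likelihood test, Benjamini-Hochberg adjusted p under 0.05), where 16.8% of all genes were called and 9.98% were higher. The median log2 fold change was 1.85 over these members and -0.01 over all genes tested. By family 2 of 5 tested H1 genes rose, 11 of 14 H2A, 10 of 16 H2B, 7 of 10 H3 and 8 of 13 H4 genes. In sums over all cells, fewer dividing cells and less histone RNA per cell cannot be told apart.

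Among called members with a mean of at least 5 CPM in this comparison, Hist1h2af (H2A) had the largest log2 fold change. It had 9.71, 25.7, 17.3 and 9.90 CPM in untagged bone replicates 1 to 4, 14.5, 1.84, 2.08 and 3.80 CPM in brain, 1.82, 2.92, 2.41 and 2.82 CPM in liver and 0.691, 0.340, 0.313 and 0.791 CPM in lung. Bone lay above every liver and lung sample, and brain replicate 1 lay within the range of bone. The log2 fold change was 3.19 (SE 0.41, adjusted p = 0.00221).

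Hist1h2ap had 453, 499, 944 and 1015 CPM in untagged bone, 843, 35.7, 124 and 311 CPM in brain, 134, 53.5, 124 and 207 CPM in liver and 77.6, 10.9, 35.7 and 78.6 CPM in lung. Bone was again above all samples but brain replicate 1, and the log2 fold change was 2.74 (SE 0.56, adjusted p = 0.00787). Hist1h2ab (H2A) had 70.9, 72.5, 106 and 123 CPM in bone against 8.12, 1.10, 3.44 and 8.04 CPM in lung, and rose by 2.70 (SE 0.50, adjusted p = 0.00529). Its brain values of 111, 11.2, 17.2 and 44.3 CPM overlapped bone through replicate 1 alone.

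The H3 gene Hist1h3b had 12.6, 9.45, 19.0 and 20.2 CPM in untagged bone, 17.2, 0.922, 2.46 and 8.65 CPM in brain and at most 4.54 CPM in liver and 1.58 CPM in lung. Its log2 fold change was 2.70 (SE 0.48, adjusted p = 0.00447). Hist1h3c (H3), at 77.1, 54.7, 82.7 and 73.0 CPM in bone and at most 6.14 CPM in lung, had a log2 fold change of 2.56 (SE 0.60, adjusted p = 0.0136), a call lost without untagged bone replicate 3 or 4. The H2B gene Hist1h2bn stood at 9.47, 11.9, 17.9 and 15.9 CPM in bone and 2.16, 0.510, 0.834 and 1.71 CPM in lung, with a log2 fold change of 2.48 (SE 0.45, adjusted p = 0.00520). Without brain replicate 1 the log2 fold changes were 3.49 for Hist1h2af, 3.02 for Hist1h2ap, 2.94 for Hist1h2ab, 2.90 for Hist1h3b, 3.03 for Hist1h3c and 2.77 for Hist1h2bn, all still called.

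The members that led in neutrophil-like cells did not pass this test. Hist1h1c had 183, 102, 85.6 and 123 CPM in untagged bone and 265, 62.4, 69.2 and 158 CPM in lung, with a log2 fold change of -0.03 (adjusted p = 0.955). Hist1h2bc had 124, 56.2, 49.9 and 69.8 CPM in bone and 298, 101, 51.0 and 186 CPM in lung, with a log2 fold change of -0.68 (adjusted p = 0.259). A missed threshold does not show equal levels.

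The number of members called rested on single samples. Without untagged bone replicate 4 it was 15, without bone replicate 3 it was 22, and without brain replicate 1 it was 46. Genes that mark dividing cells moved with the members: 30 of 30 tested G2/M genes rose (Ccnb1, the mitotic cyclin, by 2.76) and 24 of 32 S phase genes (Rrm2, a ribonucleotide reductase subunit, by 2.55). Of the chaperones that load histones on DNA 7 of 17 rose, among them Asf1b by 2.39 and the chromatin assembly subunit Chaf1a by 1.99. Of the genes for histone mRNA processing and transcription 5 of 17 rose, with Ccne2, a cyclin of S phase entry, up by 2.38. Of the histone variants outside the clusters 5 of 10 rose, H2afx by 1.94 and the centromeric Cenpa by 1.46. Of 16 stress and dissociation genes 13 were lower in bone. Granulocyte precursor markers rose in 9 of 12 cases, and their sum was 6286 to 10523 CPM in untagged bone against 3039 to 11607 in brain, 2937 to 5327 in liver and 2437 to 3938 in lung, so that bone and brain overlapped. The part of these in the histone difference over all cells was not tested.

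The same comparison within classes left few calls, and none inside single clusters of the neutrophil-like class, the only class tested by cluster here. In neutrophil-like cells 3 of 16 tested members were called, against 20.3% of all genes. Hist1h4d (H4) rose, with 16.1 to 21.6 CPM in untagged bone (median 17.9) against 3.05 to 22.3 in brain, 2.10 to 11.2 in liver and 0 to 4.03 CPM in lung. Bone lay above liver and lung and overlapped brain. The log2 fold change was 1.71 (SE 0.41, adjusted p = 0.0108), and the call held with each sample left out in turn, a check chosen after the data had been seen.

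Hist1h2bc and Hist1h2be, both H2B genes, fell in neutrophil-like cells of bone. Hist1h2bc had 28.3 to 125 CPM in bone (median 67.1) against 103 to 147 in brain, 127 to 194 in liver and 110 to 380 CPM in lung, a log2 fold change of -1.17 (SE 0.33, adjusted p = 0.0204). Hist1h2be had a median of 12.9 CPM in bone and 32.4 in lung, a log2 fold change of -0.77 (SE 0.25, adjusted p = 0.0359). The first call was lost without untagged bone replicate 2 or 3, and the second without 1 of 7 samples. The clusters of this class differed between the tissues: cluster 0 (Il1b, Acod1 and Ccrl2) held 1.19% to 5.72% of neutrophil-like cells in untagged bone and 58.5% to 74.6% in lung, and cluster 3 (Ltf, Ngp and Camp) 35.3% to 47.5% and 0.814% to 3.43%. Hist1h2bc had 165 to 557 CPM in cluster 0 of lung and 9.26 to 26.0 CPM in cluster 3 of bone. When each of the 5 clusters was tested alone, an alternative added after the data had been seen, 0 members were called in any (0% of all genes in cluster 0 to 1.5% in cluster 6), with 4 member results at an unadjusted p under 0.05. The log2 fold change of Hist1h2bc then was 0.32, -0.28, -1.71, 0.15 and -0.15 in clusters 0, 2, 3, 6 and 12. That of Hist1h2be was 0.87 in cluster 0, -0.16 in cluster 2, -0.20 in cluster 3 and -0.04 in cluster 12, and that of Hist1h4d was 0.16 in cluster 3, where alone it was tested. Fewer cells of 1 cluster and less RNA per cell thus cannot be told apart in the calls over the class.

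In the other classes edgeR called 0 members: 0 of 17 in B cell-like (0.268% of all genes), 0 of 28 in monocyte-like (0.435%), 0 of 8 in NK cell-like (0%) and 0 of 13 in T cell-like cells (0.192%). At an unadjusted p under 0.05 there were 0, 12, 4 and 3 members, and DESeq2 called 7 members over all 5 classes. The median log2 fold change of the 28 members tested in monocyte-like cells was 0.78. The total of 3 calls became 1 without untagged bone replicate 3, 7 without bone replicate 1 and 5 without brain replicate 1.

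The second comparison set tagged against untagged cells in each intracardiac tissue. Over all cells edgeR called 0 members: 0 of 59 tested in bone (0% of all genes), 0 of 41 in brain (3.06%, with 2.88% higher), 0 of 44 in liver (0%) and 0 of 41 in lung (18.3%). At an unadjusted p under 0.05 there were 0, 1, 0 and 4 members beside 983 of 12533, 2327 of 11064, 1571 of 11854 and 4323 of 12331 genes, and DESeq2 called 1 member in lung and 0 in the other tissues. The members tested had a median log2 fold change of -0.27 for bone, -0.56 for brain, -0.40 for liver and -0.56 for lung. A test of whether the difference varied by tissue called 0 of 59 members (1.15% of all genes). In lung 17 of 29 G2/M genes rose in tagged cells while no histone gene was called. Without lung untagged replicate 2 the lung count was 3.

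In bone, brain and liver the replicate numbers paired the tagged and untagged samples. With the number as a block, 2 of 53 tested members fell in tagged brain cells (7.11% of all genes called, 1.53% lower). Hist1h2ae had 415, 23.7, 21.8 and 57.8 CPM in tagged and 563, 49.4, 93.3 and 130 CPM in untagged brain replicates 1 to 4. Tagged cells were lower in every pair, although the groups overlapped, and the log2 fold change was -1.49 (SE 0.30, adjusted p = 0.0390). Hist1h3e (H3) had a blocked log2 fold change of -1.13 (SE 0.23, adjusted p = 0.0394). Without replicate 1 the blocked fit called 3 of 40 members, Hist1h2ae among them (-1.82, adjusted p = 0.0276) and Hist1h3e not (adjusted p = 0.0526). Without replicate 2, 3 or 4 it called 0. The cells of the sorts differed as well: 8 of 11 microglia markers (median log2 fold change 4.15) and 6 of 19 macrophage markers (median 3.33) rose in tagged brain, and precursor classes held a median of 2.08% of tagged and 7.03% of untagged cells. Their part in the blocked difference was not tested.

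Within classes the unblocked test called 0 members in 19 fits. It called 11 genes in cluster 8 of liver (0.193% of all genes) and 0% of all genes in the other 18. At an unadjusted p under 0.05 there were 23 of 53 members and 840 of 9416 genes in the granulocyte precursor-like cells of bone, 21 of 35 members and 383 of 7251 genes in stem or progenitor-like cells, and 18 of 50 members and 272 of 9129 genes in cluster 11. DESeq2 called 5 members over all fits. The block changed this in bone. In granulocyte precursor-like cells, with 4 tagged and 3 untagged samples, 39 of 57 tested members fell and 0 rose, against 14.4% of all genes called and 8.59% lower. Hist1h2ac (H2A) had 8.77 to 29.9 CPM in tagged (median 19.6) and 15.5 to 44.1 CPM in untagged samples (median 33.5), and the blocked log2 fold change was -1.24 (SE 0.15, adjusted p = 9.85e-06). For Hist1h3d (H3) the medians were 8.96 and 18.6 CPM (blocked log2 fold change -1.28, SE 0.19) and for Hist1h1a (H1) 41.2 and 60.2 CPM (-1.04, SE 0.14). The unblocked groups overlapped for all 3 genes, so that these calls rest on the pairs. With each replicate number left out in turn the block called 27 (without 4) to 39 members, all lower. The calls of these 3 genes held in all 4 refits. Untagged replicate 1 held 10 cells and was not in the fit. Leaving out replicate 1, which gave 39 members, thus removed no pair, and only the other refits bear on the pairs. Genes of the cell cycle moved with the members: 26 of 32 S phase genes fell and 0 rose in the blocked fit of all samples, and of 30 G2/M genes 8 rose and 2 fell. Of 15 dissociation and stress genes 8 fell and 1 rose, and of 17 processing genes 6 fell and 0 rose. The make-up of the class differed between the sorts as well. The S bin held 52.9%, 13.6% and 29.5% of its cells with at least 2000 UMIs in tagged replicates 2, 3 and 4 and 51.6%, 45.9% and 41.4% in the untagged samples of the same number, so that the share was lower in 2 of the 3 tagged samples. Within the S bin the summed member level of these samples was 3400, 4810 and 6096 CPM in tagged and 4112, 4568 and 6381 CPM in untagged cells. Within the G2/M bin it was 2925, 2616 and 3682 CPM in tagged and 3723, 5970 and 5450 CPM in untagged cells. The tagged sample was thus lower in G2/M cells of all 3 pairs and in S cells of 2. The bins of tagged replicate 2 held 18 and 16 cells. The part of the cycle make-up, or of the stress and processing genes, in the 39 calls was not tested. In cluster 11 the block called 10 of 55 members, all lower in tagged cells (1.49% of all genes), with Hist1h2af at -1.01 and Hist1h2ab at -0.76, while 0 of 32 S phase and 0 of 30 G2/M genes were called. This count was 6 without replicate 2, where Hist1h2af was not called, and 15 without replicate 1. In cluster 9 it called 1 of 53, Hist1h2ac at -0.87 (0.069% of all genes), a call lost without replicate 2, 3 or 4. In stem or progenitor-like cells the summed level was 4754, 2105, 2278 and 1395 CPM in tagged and 11624, 3442, 4025 and 6054 CPM in untagged bone replicates 1 to 4, lower in the tagged sample of every pair. The median log2 fold change of its members was -1.16 unblocked and -1.26 with the block, which called 0 of 37 members and 0 genes, with 28 members and 575 of 8283 genes at an unadjusted p under 0.05.

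Blocked calls in the pooled classes were few. None of the calls named here was met again in the single clusters where the gene could be tested, though some folds stayed about as large there. In B cell-like cells Hist1h2ae rose by 2.05, Hist1h1b by 1.85 and Hist1h2ab by 2.44 in tagged bone (3 of 28 members, 0.128% of all genes). The summed level of these cells was 2169, 513 and 4665 CPM in tagged bone replicates 1, 2 and 3 against 1357, 578 and 1169 CPM in the untagged samples of the same number, so that tagged replicate 2 was not higher. Tagged replicate 3, the highest, held 31 cells. Without replicate 3 all 3 calls held, with Hist1h2ae at 1.64, and the call of Hist1h2ab was lost without any of the others. Replicate 4 had no tagged sample of at least 20 cells, so that leaving it out removed no pair. In liver 6 of 27 members rose (0.911%), Hist1h2ap by 2.37 and Hist1h3c by 3.28 among them. In the same fit 5 of 23 G2/M genes (median log2 fold change 1.63) and 1 of 26 S phase genes (median 0.69) rose and 0 fell. Their part in the rise was not tested. The summed level of B cell-like cells was 1216, 3631 and 992 CPM in tagged liver replicates 1, 2 and 3 against 934, 457 and 650 CPM in untagged ones. Tagged replicate 2, with 22 cells, lay above all the others. Without replicate 2 of both sorts 2 of 19 members were called, Hist1h2ap at 1.64 and Hist1h2ae at 1.21, and Hist1h3c was not (1.95). These sums rest on few cells of cluster 25. In tagged bone replicate 3 it held 9 cells at 13991 CPM, and in tagged liver replicate 2 a single cell at 10074 CPM, while the cells of cluster 1 in these samples had 491 and 540 CPM. Within cluster 1 alone the block called 0 of 11 members in bone (0.152% of all genes) and 0 of 18 in liver (0.582%), with Hist1h2ae at -0.50 and 0.005, Hist1h1b, in bone, at 0.20 and Hist1h2ap, in liver, at 0.11. Hist1h1b and Hist1h4d, called in the liver class at 1.34 and 1.86, stood at -0.92 (unadjusted p = 0.0299) and 0.39 in cluster 1. Hist1h2ab in both tissues and Hist1h3c in liver fell below the filter on low counts there and were not tested. In brain neutrophil-like cells Hist1h2bc rose by 0.50 and Hist1h4i by 0.73 (2 members called, 4.96% of all genes), calls lost without replicate 3 or 4 for the first gene and 1 or 4 for the second. Of 16 dissociation and stress genes 8 rose and 0 fell in the same fit (median log2 fold change 0.495). Their part in these calls was not tested. Single members fell in brain T cell-like cells (Hist1h1b, -1.70, 0.722% of all genes) and in liver neutrophil-like cells (Hist1h1e, -1.0, 0.297%). The first call was lost without replicate 2 or 3 and the second without any 1 replicate number. In single clusters of these classes the calls of Hist1h2bc, Hist1h4i and Hist1h1e were lost, and Hist1h1b was not tested in cluster 15, the one T cell-like cluster of brain that could be fitted. Hist1h2bc stood at -0.0093, -0.44 and 0.24 in clusters 0, 2 and 3 of brain. Hist1h4i stood at -0.021, -0.42 and 0.85 in the same clusters, the last as large as in the class (SE 0.36, unadjusted p = 0.0301, adjusted p = 0.64 by edgeR). In liver Hist1h1e stood at -0.68 in cluster 0 (SE 0.31, unadjusted p = 0.0347, adjusted p close to 1) and -0.43 in cluster 2, lower in tagged cells in both. The fit of cluster 2 of brain, with 2 tagged and 4 untagged samples, called 1 of 6 members, Hist1h1c, named after its value was seen. Its log2 fold change was -0.87 (adjusted p = 0.00752 by edgeR, 0.403% of all genes called). This fit rests on 2 pairs and was not repeated with samples left out.

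The third comparison used the position in the cell cycle. Within a class, cells thinned to 2000 UMIs were placed in an S bin or a G2/M bin by at least 3 UMIs of the list and more of it than of the other, or in a quiet bin with 0 UMIs of both. Bins of at least 20 cells per sample were compared with the sample as a block. The lists that set the bins are not results, and no member is in them.

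In intracardiac bone the summed level had close medians in the S and G2/M bins, 6743 and 6389 CPM in cluster 11, 6348 and 6380 CPM in cluster 9, and 4795 and 4587 CPM in granulocyte precursor-like cells. The direction differed between samples: among granulocyte precursor-like cells tagged replicate 3 had 4810 CPM in S and 2616 in G2/M, and tagged replicate 1 had 4781 and 7019 CPM. Members were called in both directions. In cluster 11, 5 of 50 members were higher in S and 14 lower (33.5% of all genes called). In cluster 9 these were 6 and 7 of 50 (26.7%), and in granulocyte precursor-like cells 5 and 1 of 47 (10.7%). In all 3 classes the share called was near that over all genes.

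Hist1h1a, a linker histone gene, was higher in S in all 3 classes. In cluster 9 it had 60.9 to 88.3 CPM in S (median 69.5, n = 4 samples) and 17.2 to 37.0 CPM in G2/M (median 28), with no overlap and a log2 fold change of 1.42 (SE 0.14). In cluster 11 the medians were 138 and 74.5 CPM (0.74, SE 0.11), and in granulocyte precursor-like cells 73.4 and 41.1 CPM (0.95, SE 0.16, n = 6). Hist1h4i (H4) was higher in S by 0.39, 0.92 and 0.52 and Hist1h3a (H3) by 0.48, 1.33 and 0.73 in cluster 11, cluster 9 and granulocyte precursor-like cells. The call of Hist1h4i in cluster 11 was lost without untagged bone replicate 2, with DESeq2 and at 1000 UMIs per cell.

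Hist1h4d, an H4 gene with a long annotated end, was lower in S in all 3. In cluster 11 it had 211 to 320 CPM in S (median 294) and 378 to 512 CPM in G2/M (median 467), with no overlap and a log2 fold change of -0.65 (SE 0.10). In cluster 9 the medians were 300 and 422 CPM (-0.58, SE 0.09). In granulocyte precursor-like cells they were 174 and 247 CPM (-0.44, SE 0.13, adjusted p = 0.0267), and this call was lost without untagged bone replicate 2 or 3 or tagged bone replicate 1, with DESeq2 and at 1000 UMIs per cell. The calls of Hist1h3a in cluster 11 and in granulocyte precursor-like cells were likewise lost without single samples and with DESeq2.

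**Figure D4:**
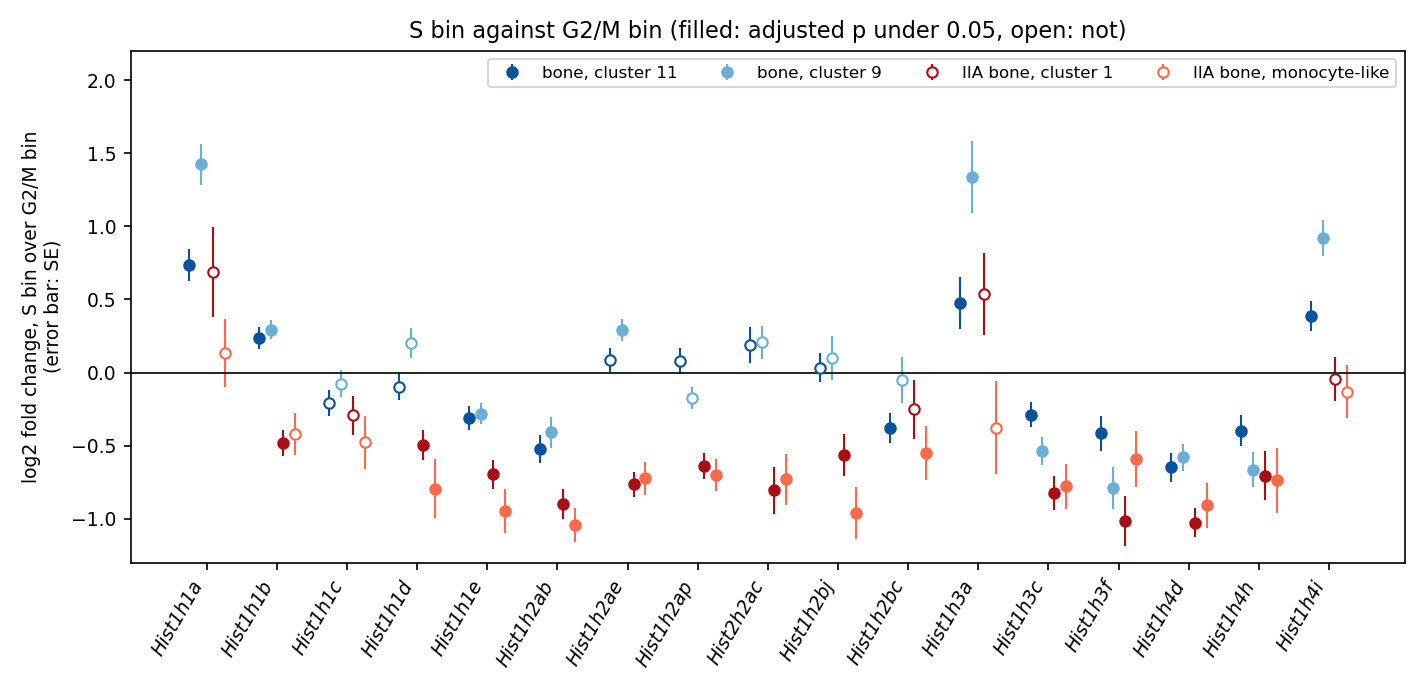
Log2 fold change of the S bin over the G2/M bin (vertical axis, bars are SE) for 17 histone genes (horizontal axis) in intracardiac clusters 11 and 9 and in IIA cluster 1 and monocyte-like cells, with filled points past an adjusted p of 0.05. Filled points of the intracardiac clusters lie on both sides of 0, and those of the IIA classes lie below it.

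The IIA experiment gave enough quiet cells for a comparison with cycling ones. In cluster 1 (Orm1, Fcnb and Chil3) the summed level had medians of 568 CPM in quiet, 2932 in S and 4061 CPM in G2/M cells. The medians were 532, 2610 and 4150 CPM in monocyte-like and 430 in quiet and 1675 CPM in S neutrophil-like cells, whose G2/M bin had 1635 to 3317 CPM, and the quiet bin lay below the other bins in all 3 classes. The IIA monocyte-like class pooled 3 clusters and the neutrophil-like class 6, and their shares by bin were not compared. All samples with a quiet or S bin of cluster 1 or of monocyte-like cells were untagged. Against the quiet bin 27 of 28 members tested in cluster 1 rose in S (46.2% of all genes called), 27 of 28 in monocyte-like (35.9%) and 19 of 21 in neutrophil-like cells (46.0%). In G2/M 38 of 39 rose in cluster 1 (38.0%), 38 of 38 in monocyte-like (32.5%) and 37 of 38 in neutrophil-like cells (55.3%). Members scarce in quiet cells passed the filter only where the cycling bin held them, so these counts cover the members tested and not all 67.

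Hist1h2ap in cluster 1 had 3.17 to 18.6 CPM in quiet cells (median 8.74, n = 5 samples), 187 to 316 in S (212) and 338 to 435 CPM in G2/M (364). The 3 bins did not overlap, and the log2 fold changes against quiet were 4.68 (SE 0.30) in S and 5.43 (SE 0.26) in G2/M. Hist1h2ao had 0 to 40.0 CPM in quiet cells (median 15.8), up to 412 in S (median 353) and 527 to 575 CPM in G2/M, again without overlap. Hist1h1d, an H1 gene, rose by 4.06 in S and 4.64 in G2/M.

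Hist1h1c had 24.8 to 43.7 CPM in quiet cells (median 40.0), 44.7 to 102 in S (52.0) and 54.6 to 120 CPM in G2/M (82.8). Hist1h2bc had a median of 17.5 CPM (4.96 to 28.5) in quiet and 31.5 CPM (up to 36.1) in S cells, with overlapping bins. In neutrophil-like cells Hist1h1c had medians of 45.6 CPM in quiet and 49.2 CPM in S cells (n = 7), within each other's range, where Hist1h2ao rose by 3.94 (SE 0.21) and Hist1h2ap by 3.34 (SE 0.24). In monocyte-like cells Hist1h2an rose by 4.54 and Hist1h1b by 3.24 in S.

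In 3 of the 4 IIA classes the members called between the cycling bins were all lower in S. In cluster 1, 33 of 48 fell (24.1% of all genes called), 14 of 14 tested H2A genes among them. In monocyte-like cells 24 of 40 fell (15.2%) and in neutrophil-like cells 10 of 32 (12.9%, a share of members above that of all genes in each of the 3). In granulocyte precursor-like cells 6 of 44 were instead higher in S (7.41%). Hist1h4d in cluster 1 had 86.6 to 152 CPM in S (median 108, n = 6) and 204 to 253 CPM in G2/M (236), without overlap (log2 fold change -1.03, SE 0.10). In monocyte-like cells Hist1h3b fell by 1.26 and Hist1h2ab by 1.04 on the log2 scale. In granulocyte precursor-like cells Hist1h1a was higher in S by 1.25 (SE 0.29, adjusted p = 0.00551, n = 4), a call lost without tagged replicate 1 or 5 and with DESeq2. DESeq2 called 34 members over these fits where edgeR called 73.

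**Figure D5:**
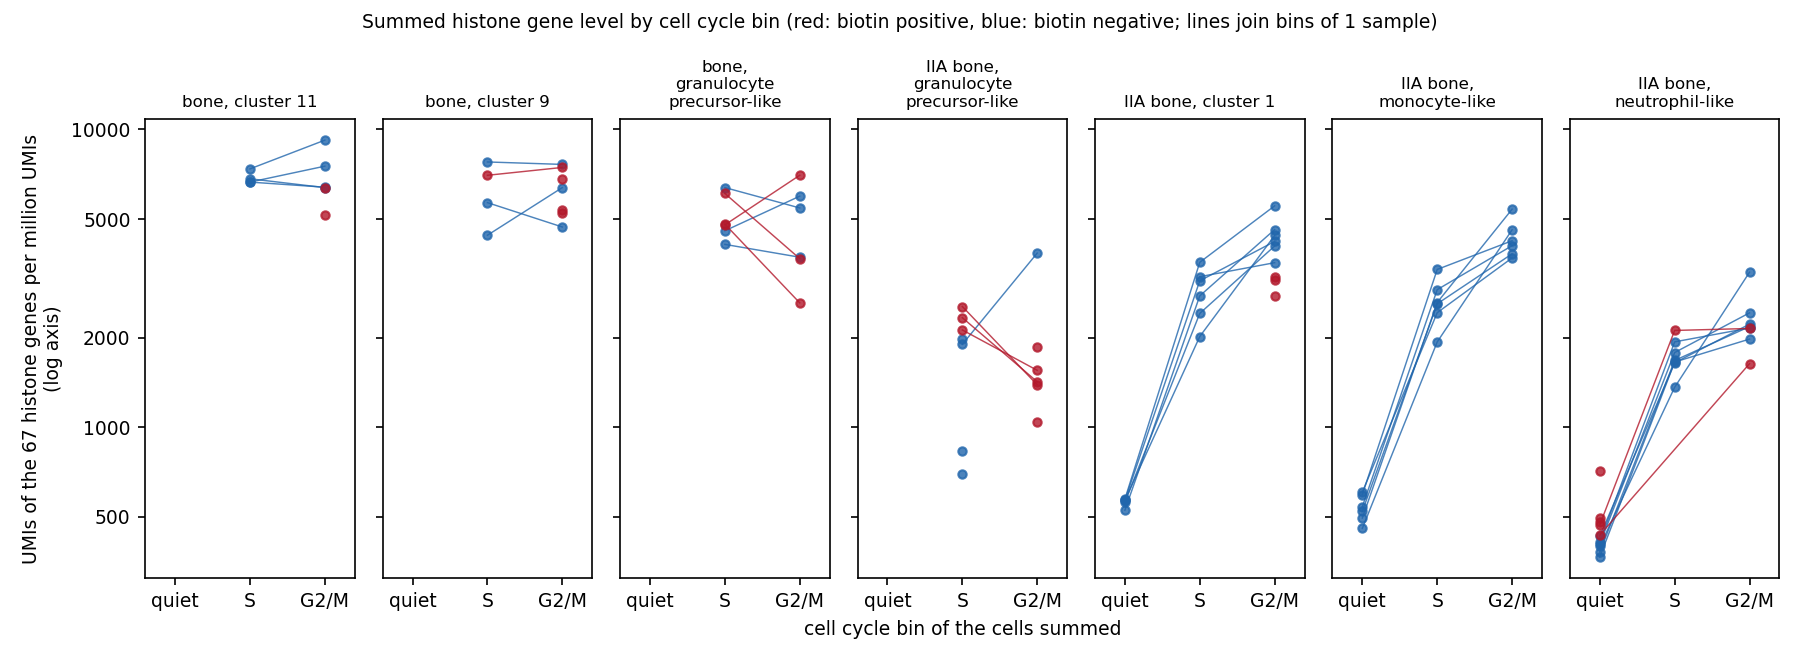
Summed level of the 67 histone genes in CPM (vertical log axis) in quiet, S and G2/M cells (horizontal axis) of 7 classes, with 1 point per sample (red tagged, blue untagged) and lines joining the bins of a sample. In IIA cluster 1 the medians are 568, 2932 and 4061 CPM, and in the 3 intracardiac bone classes the S and G2/M points overlap.

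The fourth comparison was tagged against untagged bone after the IIA injection. Over all cells 35 of 60 tested members fell in tagged cells and 0 rose, against 50.2% of all genes called and 23.2% lower. The median log2 fold change was -0.59 over the members and 0.08 over all genes. Lower members numbered 3 of 5 H1, 9 of 17 H2A, 9 of 15 H2B, 6 of 10 H3 and 8 of 13 H4 genes. The count ranged from 26, without untagged replicate 6, to 38 with each sample left out in turn.

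Hist1h2be (H2B) had 8.18 to 19.1 CPM in tagged samples and 18.4 to 22.6 CPM in untagged ones. Only tagged replicate 4 reached the untagged samples, and the log2 fold change was -0.999 (SE 0.17, adjusted p = 0.000443). Hist1h2an (H2A) had 15.9 to 31.0 CPM in tagged and 32.3 to 56.8 CPM in untagged samples, without overlap (-0.96, SE 0.18, adjusted p = 0.00106). Hist1h2bg (H2B) fell by 0.998 (SE 0.21), Hist1h2bb (H2B) by 0.92 (SE 0.22) and Hist1h2bn by 0.81 (SE 0.22) on the log2 scale. The call of Hist1h2ac (-0.90, SE 0.30, adjusted p = 0.0254) was lost without untagged replicate 6. Hist1h2ae had 107 to 235 CPM in tagged and 189 to 258 CPM in untagged samples, which overlapped.

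The lists of cycling genes did not fall with the histone genes. Of 30 G2/M genes 15 rose in tagged cells, Ccnb1 by 0.94, and of 32 S phase genes 1 rose and 1 fell. The one that fell was Slbp, which codes for the stem-loop binding protein (-0.44, SE 0.11, adjusted p = 0.00631). Of 17 processing genes 5 fell and 1 rose, and of the histone variants H3f3a (-0.77) and H3f3b (-0.38), which code for the replacement histone H3.3, fell. The cells differed too: neutrophil markers summed to 40745 to 93026 CPM in tagged and 216692 to 263007 CPM in untagged samples, macrophage markers to 761 to 10541 and 196 to 449 CPM, and markers of B cell precursors to 202 to 343 and 473 to 1203 CPM, with no marker of these lists at 0 in either IIA group. Precursor classes, unnamed cluster 1 among them, made up 5.98% to 53.3% of tagged and 13.7% to 28.5% of untagged cells. Their part in the fall over all cells was not tested.

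Within classes the median log2 fold change of the members tested was -0.36 in cluster 1 (11 of 47 at an unadjusted p under 0.05), -0.26 in granulocyte precursor-like (9 of 33), 0.38 in neutrophil-like (19 of 40) and -0.03 in monocyte-like cells (0 of 50). Over all genes tested it was between -0.04 and 0.00. In neutrophil-like cells 7 of 40 members rose and 0 fell (12.1% of all genes called, 8.43% higher). Hist1h2bj (H2B) had 14.3 to 39.7 CPM in tagged (median 30.3) and 6.64 to 15.2 CPM in untagged samples (12.2). The lowest tagged sample lay below the highest untagged one, and the log2 fold change was 1.26 (SE 0.22, adjusted p = 0.00144), with the call kept in all 12 refits that left out 1 sample. Hist1h4m (H4) rose by 0.86 (SE 0.22), with medians of 20.9 and 11.1 CPM, a call lost without tagged replicate 3 or 5. Smaller rises were those of Hist1h4i by 0.83, Hist1h1b by 0.45, Hist1h3c by 0.42 and Hist1h4d by 0.36. The last 4 calls were each lost without any of several samples, and those of Hist1h1b, Hist1h3c and Hist1h4d also with no filter on low counts, and the total over the 4 classes ranged from 3, without untagged replicate 6, to 13, without untagged replicate 1. The cells behind the class differed here too. Of neutrophil-like cells with at least 2000 UMIs 11.5% to 30.4% (median 16.9%) were in the S or G2/M bin in tagged samples and 10.1% to 16.7% (median 12.8%) in untagged ones. Cluster 10 held a median of 28.9% of tagged and 1.58% of untagged neutrophil-like cells. In the 6 clusters tested alone 0 members were called (0% to 0.0958% of all genes), with 7 member results at an unadjusted p under 0.05 over the 6. Hist1h2bj stood at 0.18 in cluster 3 and -0.12 in cluster 13, and Hist1h4m at 0.30 and 0.095 in the same clusters, all below the class values. Other members kept a fold as large as in the class in some clusters. Hist1h4d stood at 0.47 in cluster 0 (SE 0.20, unadjusted p = 0.0291, adjusted p = 0.823 by edgeR) and between -0.16 and 0.16 in the other 5. Hist1h1b stood at 0.49 in cluster 2 and 0.63 in cluster 3, and Hist1h3c at 0.41 in cluster 2, while both were below 0 in clusters 0 and 4.

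In granulocyte precursor-like cells 2 of 33 members fell (10.6% of all genes called). Hist1h2bc had 9.33 to 14.8 CPM in tagged (n = 5) and 15.6 to 33.5 CPM in untagged samples (n = 6), without overlap (log2 fold change -1.06, SE 0.22, adjusted p = 0.00177). Hist1h3i (H3) had medians of 14.3 and 20.2 CPM, with overlap (-0.89, SE 0.27, adjusted p = 0.0309), a call lost without untagged replicate 4 or 5 and with no filter on low counts. This class pooled 3 clusters, and in the largest, cluster 5, both genes fell below the filter on low counts. Another 4 of 27 members were called there, all lower in tagged cells, and are named after their values were seen: Hist1h2ac (-1.23), Hist1h2bj (-1.15), Hist1h4m (-1.06) and Hist1h1c (-0.85), where 10.6% of all genes were called. In the class as a whole 19 of 30 S phase genes were lower and 22 of 30 G2/M genes higher in tagged cells. In cluster 1, 1 of 47 members was called (3.19% of all genes), Hist1h4d at -0.47 (SE 0.12, adjusted p = 0.0167), with medians of 153 and 181 CPM, a call lost without tagged replicate 1 or 5. In monocyte-like cells edgeR called 0 of 50 members and 0% of all genes, with 0 members at an unadjusted p under 0.05.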

How the data were processed

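Single-cell libraries of 32 intracardiac samples and 1 pooled IIA bone library were used. What the authors deposited were raw UMI counts for each gene in each barcode, made with Cell Ranger (6.1.2 for the intracardiac and 7.1.0 for the IIA matrices, per the file headers) on mm10, per the submitters' processing notes. How introns were counted is not given in the sources used here. IIA cells were assigned by hashtag (at least 10 counts and 3 times the next), hashtag and sample being matched by number. Cells with under 500 UMIs, under 200 genes or over 15% mitochondrial UMIs were left out.

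Cells were clustered (scanpy 1.11.5) with the members kept out of the 2000 variable genes, and clusters were named from 27 marker lists. Unnamed clusters held 10.7% of intracardiac and 15.3% of IIA cells. Doublets were kept. A class needed resemblance to a list only, so names are not identities.

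Counts were summed per sample, or per sample and class or bin with at least 20 cells, and tested with edgeR 4.0.16 (quasi-likelihood, TMM, filterByExpr, Benjamini-Hochberg over all genes tested, threshold 0.05, R 4.3.3). The SE was taken as the absolute log2 fold change over the root of F. DESeq2 1.42.0 was an alternative. Scripts were tested on simulated data. Same-numbered tagged and untagged samples deviated together in bone (correlations 0.428 to 0.746), brain (0.280 to 0.681) and liver (0.306 to 0.626), but not for every number in lung and IIA bone, so the block is given beside results of the first 3 tissues. Named members were the 12 most abundant over the intracardiac samples and, in each test, up to 6 called members per direction with the largest change and a mean of at least 5 CPM. The members, lists and tests were chosen with earlier results of these data known. Promoters came from RefSeq and transcripts from the GENCODE annotation of GRCm38.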

Additional observations from a re-analysis of the deposited data

Results flagged for a closer look

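Of 130 groups of 4 or 6 samples examined for the 12 most abundant members and the summed level, 17 held a sample whose gap to its neighbour was large for the range of its group. Chance gives about 1 in 20. Replicate 1 of brain accounted for 11 of them. In tagged brain its summed level was 4107 CPM, Hist1h1b stood at 642 CPM, Hist1h2ae at 415, Hist1h2ab at 80.6, Hist1h3c at 114, Hist1h4i at 85.4 and Hist2h2ac at 83.0 CPM, each the highest of 4. In untagged brain Hist1h2ae stood at 563 CPM, Hist1h2bc at 288, Hist1h3c at 142 and Hist1h1d at 135 CPM. The same replicate number thus stood apart in both sorts, and 13.4% and 23.9% of its cells were in precursor classes.

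Untagged replicate 6 of IIA bone was the highest of 6 in the summed level (2153 CPM), in Hist1h1b (126.7 CPM) and in Hist2h2ac (39.2 CPM). Hist1h4i was lowest in untagged bone replicate 1 (34.9 CPM). Hist1h2bc was highest in untagged liver replicate 4 (147.2 CPM), and Hist1h1d in tagged lung replicate 1 (25.3 CPM).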

How the results depend on the processing

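Of the alternatives run (DESeq2, another scaling, no filter on low counts, the replicate block, 10 cells per class, bins of 2 list UMIs or of cells thinned to 1000 UMIs, members among the variable genes, no mitochondrial limit, no doublet candidates), none reversed the direction of a named member. Of 526 such values 481 kept their call and 45 lost it. With 1 sample left out 666 of 774 kept it.

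Members called over all cells were 2 in brain with the replicate block, and 1 in lung with DESeq2 and 1 with the block. Within classes the intracardiac biotin contrast, with 0 calls, gave 5 with DESeq2, 36 with no filter and 65 with the block. Untagged bone within classes (3 calls) gave 7 with DESeq2 and 16 with no filter. S against G2/M in intracardiac bone (38) gave 21 with DESeq2 and 24 in the fits possible at 1000 UMIs. In IIA bone, S against quiet (73) gave 119 with no filter, S against G2/M (73) gave 34 with DESeq2, and the biotin contrast within classes (10) gave 20 with the block. The cause was not tested. Added after the data were seen, the block across the untagged tissues gave 46 members over all cells and 16 within classes (7 of 17 in neutrophil-like, 7 of 33 in monocyte-like and 2 of 9 in NK cell-like cells), and kept the calls of all 9 named members. Same-numbered untagged samples deviated together in 22 of 24 pairs (correlation over 0.1) but not in 2 pairs of bone with brain (0.02 and -0.05), and the numbers were taken as pairs only where every pair passed. In lung and IIA bone the numbers were not taken as pairs: 2 of 4 and 3 of 6 correlated best with their own number.

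With 1 sample left out the counts ran from 0 to 3 in lung, 15 to 46 for untagged bone, 0 to 1 (without untagged liver replicate 1) and 1 to 7 within classes for the biotin contrast and untagged bone, 26 to 38 in IIA bone and 3 to 13 within IIA classes. Also added after the data were seen, single clusters of a pooled class kept no call of a named member tested in them, reversed some and left others with a fold about as large. For the IIA neutrophil-like class, Hist1h1b was -0.13 in cluster 0 and -0.15 in cluster 4, Hist1h3c -0.022, -0.040 and -0.14 in clusters 0, 3 and 4, Hist1h4i -0.064 and -0.11 in clusters 2 and 3, Hist1h4d -0.16 in clusters 4 and 13, and Hist1h2bj -0.12 in cluster 13, whereas Hist1h4d was 0.47 in cluster 0, Hist1h1b 0.49 and 0.63 in clusters 2 and 3 and Hist1h3c 0.41 in cluster 2. For untagged bone against the other tissues, Hist1h2be was 0.87 in cluster 0 and Hist1h2bc 0.32 and 0.15 in clusters 0 and 6. Hist1h2bc was -1.71 in cluster 3, a larger fall than in the class, and -0.28 and -0.15 in clusters 2 and 12. Fewer cells entered each of these fits.

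With 1 replicate number left out under the block the counts ran from 0 to 3 over brain cells, 27 to 39 in granulocyte precursor-like cells, 6 to 15 in cluster 11, 0 to 1 in cluster 9, 2 to 5 in B cell-like cells of bone and of liver, 0 to 2 in neutrophil-like and in T cell-like cells of brain, and 0 in neutrophil-like cells of liver. Where a number had a sample of 1 sort only, leaving it out removed no pair. This was replicate 1 in granulocyte precursor-like cells of bone and T cell-like cells of brain, and replicate 4 in B cell-like cells. The smallest sample held 482617 UMIs in kept cells, so that members of low level could not be resolved in it.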
